A study of Homo sapiens with 8 samples.

Results

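The abundant RNAs 7SL (genes RN7SL1, RN7SL2 and RN7SL3), 7SK (RN7SK), RMRP (RMRP) and the RNase P RNA (RPPH1) were examined in uterine leiomyosarcoma cells. The 6 genes were taken by name from the count table, where they occupy 7 of 60282 gene rows because RMRP is listed under 2 overlapping identifiers. They had been chosen for their share of the counts and their CPM (counts divided by library size and put on 1 scale) in TP-472-treated against vehicle cells, so the values of that contrast are given for them as a description, without a test.

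All 8 libraries came from SK-UT-1, a single established cell line derived from a human uterine leiomyosarcoma. The cells received TP-472, an inhibitor of the bromodomain protein BRD9, which the labels class with BRD9/7 inhibitors, at 5 µM for 48 h (4 libraries), or the vehicle DMSO (4 libraries). BRD9 is a subunit of a noncanonical BAF chromatin remodelling complex. The study's methods state in general that experiments had biological replicates, but the labels do not say whether these libraries came from separate cultures. The p-values therefore measure the spread between these libraries, part of which may be technical. Total estimated counts ran from 32574716 in vehicle replicate 3 to 38545695 in TP-472 replicate 1. At this depth the exact 95% interval of a member's share was at most 0.00782 percentage points to either side, and such intervals cover counting error only.

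The mesenchymal transcript VIM was detected at 2040 to 3760 CPM in the vehicle and 1740 to 1970 in the TP-472 libraries, and the smooth muscle transcripts CALD1 and ACTA2 at 174 to 208 and at 105 to 173 CPM. The defining contractile gene MYH11 and its regulator MYOCD were at 0 to 0.276 and at 0 to 0.221 CPM, so these markers of mature smooth muscle were close to absent. In all, 8 of 10 smooth muscle markers passed the limit of expression used for testing. Their summed level was 467 to 576 CPM in the vehicle and 360 to 393 in the TP-472 libraries. Of 3 leukocyte markers, CD3E had no count in any library and PTPRC had at most 0.0265 CPM, while CD68, a lysosomal protein of macrophages that other cells also make, stood at 7.01 to 8.19 CPM in the vehicle and 9.17 to 12.2 in the TP-472 libraries. The 4 mesenchymal markers summed to 2999 to 4970 CPM in the vehicle and 1976 to 2211 in the TP-472 libraries, with the collagen genes COL1A2 at 490 to 721 and 86.8 to 103 and COL3A1 at 440 to 472 and 140 to 154. The 5 epithelial markers summed to 17.3 to 24.5 and 21.3 to 25.2 CPM, within which KRT18 stood at 6.48 to 8.75 and 14.4 to 16.4 and KRT19 at 6.93 to 12.1 and 3.64 to 5.73. The 3 endothelial markers reached at most 0.136 and 0.607 CPM in sum. The part of these markers in the values of the 6 RNAs was not tested.

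These RNAs are noncoding and work inside protein complexes. 7SL is the scaffold of the signal recognition particle (SRP), which halts ribosomes that make secreted and membrane proteins and docks them at the endoplasmic reticulum. 7SK holds the elongation kinase P-TEFb inactive together with HEXIM proteins, LARP7 and the capping enzyme MEPCE. RMRP is the RNA of RNase MRP, which cleaves precursor ribosomal RNA, and RPPH1 is the catalytic RNA of RNase P, which removes the 5′ leader of precursor tRNA. RNA polymerase III transcribes all of these genes, and none of the RNAs carries a typical poly(A) tail.

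The 3 copies of 7SL lie close together on chromosome 14, whereas the other RNAs come from single genes. On GRCh38 in GENCODE release 29, RN7SL1 is at chr14:49586580-49586878 on the plus strand, RN7SL3 at chr14:49853616-49853914 and RN7SL2 at chr14:49862550-49862849, both on the minus strand. RN7SK is at chr6:52995621-52995948 on the plus strand. RMRP is at chr9:35657751-35658018 and RPPH1 at chr14:20343075-20343407, both on the minus strand. Each gene is annotated as a single noncoding exon.

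The near identity of the 7SL copies limits how reads can be divided among them. In GENCODE's reference transcripts, RN7SL1 and RN7SL2 were identical in 98.3% of 300 aligned positions, RN7SL1 and RN7SL3 in 97.7% of 299, and RN7SL2 and RN7SL3 in 96.0% of 300. Of the stretches of 31 bases in each transcript, 216 of 269 in RN7SL1, 196 of 270 in RN7SL2 and 153 of 269 in RN7SL3 also occurred in another of the 3 copies. The whole of RN7SL1 also lies within a transcript of 300 bases in GENCODE release 29 whose identifier is not listed in the count table. The split of counts among RN7SL1, RN7SL2 and RN7SL3 is thus an estimate by the quantification software, and the sum of the 3 rows does not depend on that split.

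The transcripts of the remaining RNAs are shown for their sequence features and for overlaps with other rows. In RN7SK, capitals mark the tetramer GATC (GAUC in the RNA), the repeat to which HEXIM binding has been mapped. In RMRP, capitals mark the bases of the longer row that lie outside the shorter one. In RPPH1 nothing is marked. RN7SK and RPPH1 are given from base 1 to base 300 of 328 and of 333 bases.
RN7SK: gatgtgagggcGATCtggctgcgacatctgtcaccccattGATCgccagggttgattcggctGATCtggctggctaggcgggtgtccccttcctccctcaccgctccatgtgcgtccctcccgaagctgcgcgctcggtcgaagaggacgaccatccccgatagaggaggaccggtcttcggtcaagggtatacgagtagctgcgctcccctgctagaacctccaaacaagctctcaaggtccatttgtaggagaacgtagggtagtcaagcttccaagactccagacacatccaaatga
RMRP: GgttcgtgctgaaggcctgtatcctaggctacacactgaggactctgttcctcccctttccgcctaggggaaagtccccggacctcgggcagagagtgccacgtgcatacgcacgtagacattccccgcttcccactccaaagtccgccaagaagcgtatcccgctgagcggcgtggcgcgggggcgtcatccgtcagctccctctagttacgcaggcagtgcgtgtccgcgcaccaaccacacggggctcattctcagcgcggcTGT
RPPH1: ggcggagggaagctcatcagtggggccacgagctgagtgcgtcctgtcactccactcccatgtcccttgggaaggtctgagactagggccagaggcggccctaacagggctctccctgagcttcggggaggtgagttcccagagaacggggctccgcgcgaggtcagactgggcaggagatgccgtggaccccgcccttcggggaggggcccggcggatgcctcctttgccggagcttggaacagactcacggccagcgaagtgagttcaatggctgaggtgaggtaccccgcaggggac

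RN7SK holds GATC at positions 12, 41 and 63, a palindrome that reads the same on both strands. Among 7523 GENCODE transcripts of 250 to 350 bases, 65.4% hold GATC and 10.2% hold it at least 3 times. The longer RMRP row (ENSG00000269900.3, 268 bases) adds 1 base before and 3 bases after the shorter row (ENSG00000277027.1, 264 bases). Reads from the part they share cannot be told apart, so RMRP is described by the sum of both rows, and a value of a single row rests on how the software divided the reads. Although RNase MRP and RNase P share most of their proteins, the longest run of bases common to RMRP and RPPH1 was 9. The whole of RPPH1 lies within a longer transcript of 638 bases on the same strand, listed as AL355075.4, whose counts were 3.003% to 7.12% of those of RPPH1. The transcript of 331 bases that holds 7SK, listed as AL162581.1, had at most 0.0294% of the counts of RN7SK.

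The copies of these RNAs scattered over the genome as pseudogenes were assigned few reads. Of the stretches of 31 bases, 100% in RN7SL1, 94.8% in RN7SL2, 72.9% in RN7SL3 and 100% in RN7SK also occurred in transcripts of other genes than the 6, so these counts rest on the division of reads by the software as well. The 660 rows of 7SL pseudogenes summed to 0.0473% to 0.179% of the 7SL counts, and 236 of them had any count. RN7SL4P and RN7SL5P led them with 614 to 1300 and 219 to 845 counts, and RN7SL832P had 23 to 52. The 292 rows of 7SK pseudogenes, led by RN7SKP255, RN7SKP203 and RN7SKP71, summed to 0.0288% to 0.196% of RN7SK. RMRPP5 had no count, and RPPH1-2P and RPPH1-3P summed to at most 2 counts.

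Vehicle replicate 3 stood apart from the other vehicle libraries before any comparison between the groups. A chi-square over genes averaged 267 against vehicle replicate 1, 458 against vehicle replicate 2 and 407 against vehicle replicate 4, compared with 11.9 to 79.6 among the other 3 vehicle libraries. In this library 7SL and 7SK were low and RPPH1 was high. Fold changes of the 6 RNAs and of the genes named, and the counts and medians of gene lists, are therefore also given without this library. No library was a copy of another, as counts differing by sampling alone would average near 1.

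Together the 6 RNAs took, in replicate order, 10.6%, 14.1%, 10.3% and 13.8% of all counts with vehicle and 12.6%, 16.9%, 16.5% and 11.1% with TP-472. The groups overlapped, with means of 12.2% ± 2.01 (SD, n = 4) for vehicle and 14.3% ± 2.87 (SD, n = 4) for TP-472, a ratio of 1.17 that became 1.11 without vehicle replicate 3. Because the share is relative, more of these RNAs and less of all other RNA in the cells cannot be told apart. Leaving the 6 RNAs out of the library total would raise the CPM of every other gene by a factor of 1.11 to 1.20.

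**Figure D1:**
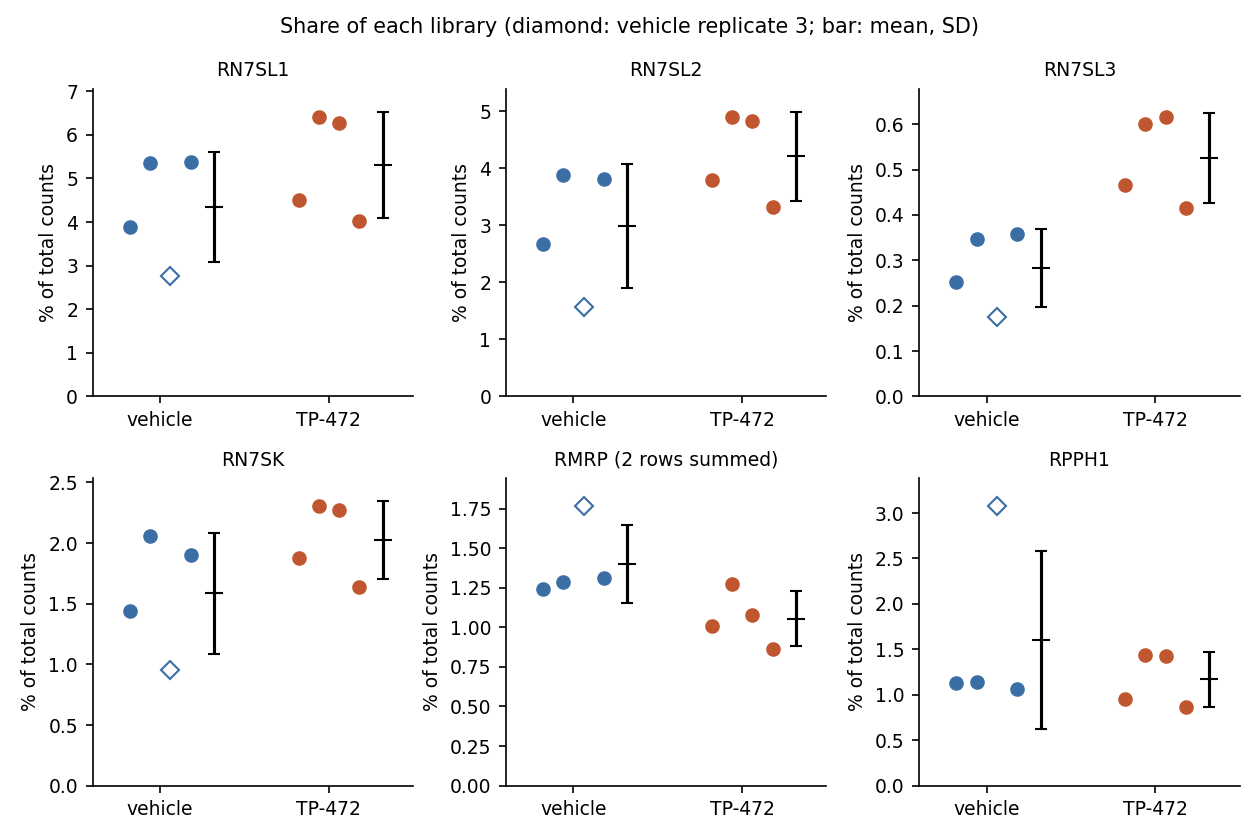
Share of each library's total counts (%, y axis from 0) taken by RN7SL1, RN7SL2, RN7SL3, RN7SK, RMRP (both rows summed) and RPPH1 in vehicle and TP-472 libraries. Each point is a library, the open diamond is vehicle replicate 3, and the bar gives the mean and SD of 4 libraries. RN7SL3 did not overlap between the groups, and vehicle replicate 3 was lowest for 7SL and 7SK and highest for RMRP and RPPH1.

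Per length, RN7SL1 was the most abundant in the vehicle cells, with 145265 ± 42076 CPM per kilobase of transcript (SD, n = 4), followed by RN7SL2 with 99389 ± 36273. RN7SK, with 48362 ± 15177 CPM per kilobase, and RPPH1, with 48143 ± 29490, lay within each other's spread. RMRP, with both rows summed over the 268 bases of the longer one, stood at 52248 ± 9125 and lay within the spread of both, and RN7SL3 had the lowest level, 9468 ± 2903. This closeness rested on vehicle replicate 3. Without it (n = 3), RN7SK stood at 54818 ± 9770 and RMRP, at 47716 ± 1289, lay within its spread, whereas RPPH1, at 33407 ± 1274, lay below both by more than their spread. In the TP-472 libraries RN7SL1 and RN7SL2 again led, with 177339 ± 40777 and 140355 ± 26093 CPM per kilobase, ahead of RN7SK with 61620 ± 9790. RMRP followed with 39385 ± 6381 and RPPH1 with 35167 ± 9115, within each other's spread. RN7SL1 held the most counts of all gene rows in every library except vehicle replicate 3, where RPPH1 held the most and RN7SL1 came next.

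The 7SL RNAs were the largest component. RN7SL1, the copy with the highest count, took 3.89%, 5.35%, 2.77% and 5.37% of all counts with vehicle and 4.51%, 6.41%, 6.27% and 4.01% with TP-472, again in replicate order as in the sentences that follow. The groups overlapped, since TP-472 replicates 1 and 4 lay below vehicle replicates 2 and 4. The log2 fold change was 0.31 ± 0.30 (SE) and was 0.13 without vehicle replicate 3.

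RN7SL2 took 2.68%, 3.87%, 1.57% and 3.80% in the vehicle and 3.79%, 4.90%, 4.84% and 3.32% in the TP-472 libraries. Again vehicle replicate 3 was lowest and TP-472 replicates 2 and 3 were highest, and the groups overlapped. The log2 fold change was 0.52 ± 0.33, or 0.29 without vehicle replicate 3.

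RN7SL3, the copy with the fewest counts, took 0.252%, 0.348%, 0.174% and 0.358% in the vehicle and 0.466%, 0.601%, 0.616% and 0.415% in the TP-472 libraries. Every TP-472 library lay above every vehicle library, also when vehicle replicate 3 was left out. The log2 fold change was 0.91 ± 0.28, or 0.72 without vehicle replicate 3. Among all 14073 genes tested, 45.4% did not overlap between the groups in TMM-scaled CPM (23.8% with TP-472 higher and 21.6% with TP-472 lower), and since the RNAs were chosen on this contrast nothing is read from the separation of RN7SL3.

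The sum of the 3 copies ran from 4.51% to 9.57% of the counts in the vehicle and from 7.75% to 11.9% in the TP-472 libraries. The means were 7.61% ± 2.43 and 10.0% ± 2.10 (SD, n = 4 each), a ratio of 1.32 that was 1.16 without vehicle replicate 3. RN7SL3 made up 3.70%, 3.63%, 3.86% and 3.76% of the 7SL counts in the vehicle libraries and 5.32%, 5.05%, 5.25% and 5.36% in the TP-472 libraries. This proportion varied by less than the difference between the groups, and vehicle replicate 3 did not stand apart in it. In counts per 7SL count, 2.37% of all genes tested were higher in every TP-472 library than in any vehicle library. The ratio of RN7SL1 to RN7SL2 was 1.38 to 1.76 in the vehicle and 1.19 to 1.31 in the TP-472 libraries. Both quantities rest on how the software divided reads among nearly identical sequences and on the contrast that chose the RNAs, so nothing is read from their separation.

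7SK followed the 7SL RNAs closely from library to library. RN7SK took 1.44%, 2.05%, 0.951% and 1.90% of the counts in the vehicle and 1.88%, 2.30%, 2.27% and 1.64% in the TP-472 libraries. The lowest value was that of vehicle replicate 3, and the groups overlapped. The log2 fold change was 0.37 ± 0.29, or 0.17 without vehicle replicate 3.

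Relative to 7SL, the counts of RN7SK were nearly constant. They amounted to 21.1%, 21.5%, 21.1% and 19.9% of the 7SL counts in the vehicle and 21.4%, 19.3%, 19.3% and 21.1% in the TP-472 libraries, with vehicle replicate 3 among them, while the 7SL share itself varied 2.64-fold between libraries. Pearson's r between log2 CPM of 7SL and of 7SK was 0.995 over the 8 libraries and 0.989 without vehicle replicate 3. This is a description, as all RNAs share the same libraries and scaling. The closeness was not particular to this pair. The genes most like RN7SK, RPS14 (r = 0.997) and PRDX5 (0.995), followed it as closely, and no share of all genes is given.

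**Figure D2:**
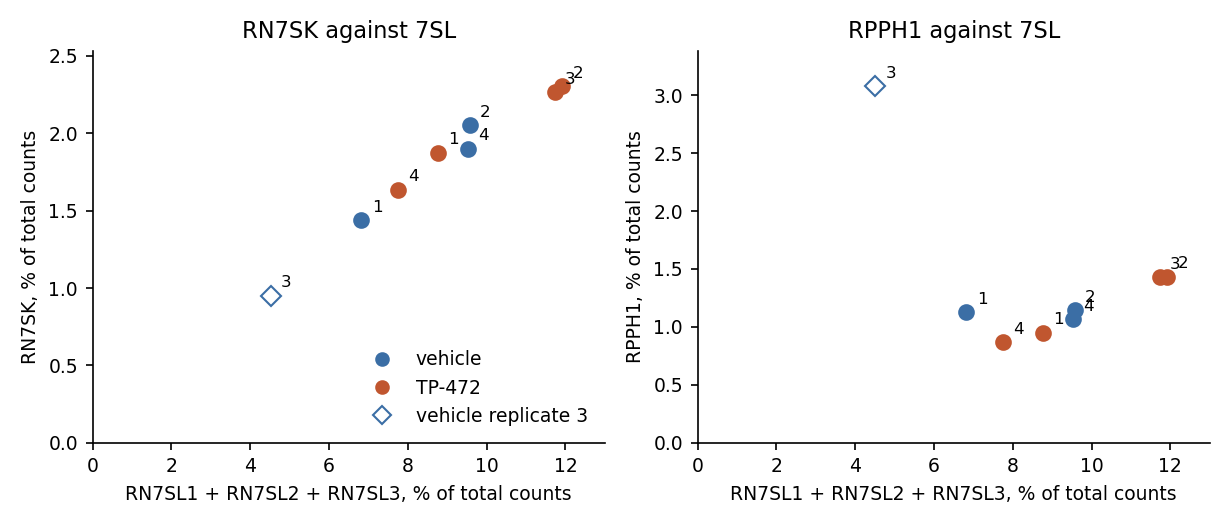
Share of total counts (%) of RN7SK (left) and RPPH1 (right) against the summed share of the 3 7SL rows, with 1 point per library labelled by its replicate number. RN7SK lay close to a straight line with 7SL through both groups, whereas RPPH1 was highest in vehicle replicate 3, the library with the lowest 7SL share.

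RMRP showed a different order. It took 1.24%, 1.29%, 1.76% and 1.31% of the counts in the vehicle and 1.01%, 1.27%, 1.08% and 0.862% in the TP-472 libraries. Vehicle replicate 3 was the highest and TP-472 replicate 4 the lowest, and TP-472 replicate 2 lay between vehicle replicates 1 and 2, so that the groups overlapped. The means were 1.4% ± 0.245 and 1.06% ± 0.171 (SD, n = 4 each), a ratio of 0.754 that became 0.825 without vehicle replicate 3. The log2 fold change of the sum was −0.36 ± 0.19, or −0.27 ± 0.17 without that library, and those of the longer and the shorter row were −0.35 ± 0.23 and −0.37 ± 0.17.

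As counts per 7SL count, RMRP stood at 0.182, 0.134, 0.391 and 0.137 in the vehicle and at 0.115, 0.107, 0.0920 and 0.111 in the TP-472 libraries. All TP-472 values lay below all vehicle values, with or without vehicle replicate 3. The same held for 16.0% of all genes tested put on this ratio, and for 16.2% without vehicle replicate 3, and since the RNAs were chosen on this contrast nothing is read from it. RMRP varied less per count of SNORD3A, the U3 small nucleolar RNA of ribosomal RNA processing, at 0.628 to 0.833 over all libraries. Vehicle replicate 3, at 0.715, lay inside this range. SNORD3A was a chosen comparison, and no share of all genes with as steady a ratio is given, so nothing is read from it. The genes most like RMRP are given further below and do not include SNORD3A.

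The RNase P RNA depended most on a single library. RPPH1 took 1.13%, 1.15%, 3.08% and 1.06% of the counts in the vehicle and 0.949%, 1.43%, 1.43% and 0.870% in the TP-472 libraries. Apart from vehicle replicate 3, the vehicle libraries differed little, and 2 TP-472 libraries lay above and the other two below them. The log2 fold change was −0.39 ± 0.37 and changed sign, to 0.086 ± 0.22, without vehicle replicate 3. The row AL355075.4, which contains the RPPH1 sequence, had 30087 counts in vehicle replicate 3 and 17403 to 23549 in the other vehicle libraries, a smaller contrast than that of RPPH1.

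RPPH1 and RMRP were also compared within libraries because RNase P and RNase MRP share proteins. RPPH1 had 0.908, 0.891, 1.74 and 0.813 counts per RMRP count in the vehicle and 0.941, 1.13, 1.33 and 1.01 in the TP-472 libraries. The groups overlapped through vehicle replicate 3 alone, and without it all TP-472 values lay above all vehicle values. Without that library 34.1% of all genes tested did so in counts per RMRP count, and nothing is read from this separation either. In 7SL counts per RPPH1 count, vehicle replicate 3 had 1.47 and the other libraries 6.05 to 9.23.

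**Figure D3:**
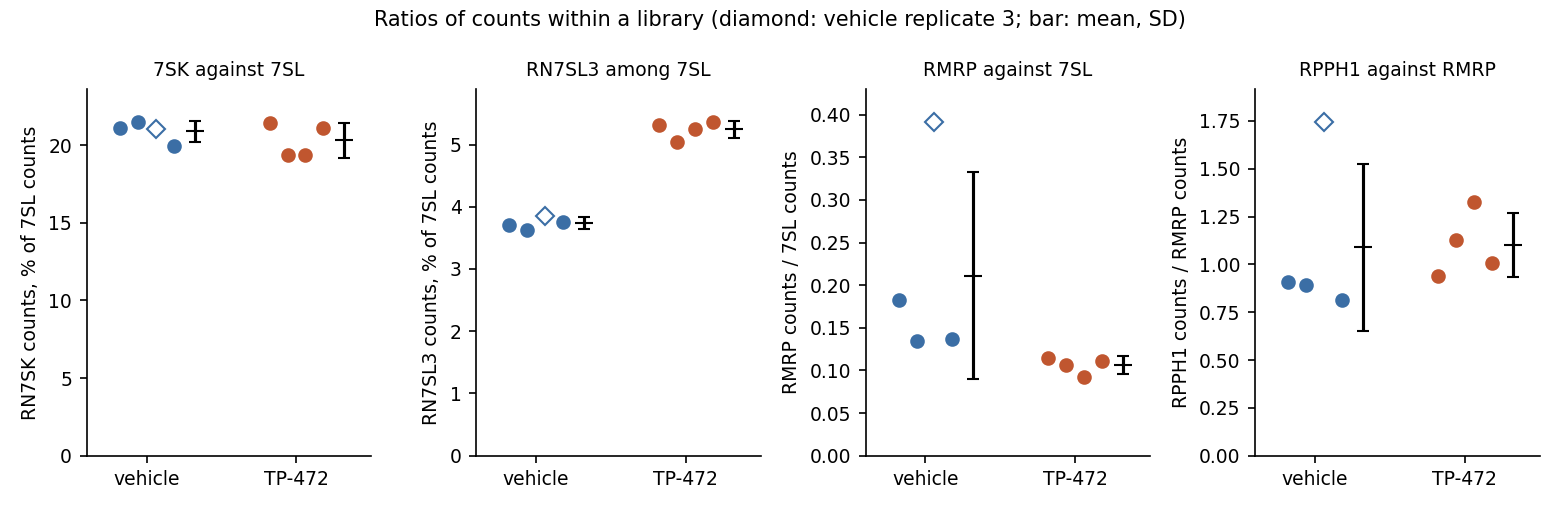
Ratios of counts within each library for RN7SK and RN7SL3 (% of the summed 7SL counts), RMRP per 7SL count and RPPH1 per RMRP count, with all y axes from 0. Points are libraries, the open diamond is vehicle replicate 3, and bars give the mean and SD. RN7SK per 7SL was alike in both groups, RN7SL3 made up a larger part of 7SL in the TP-472 libraries, and vehicle replicate 3 stood apart in the other ratios.

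Other components of the libraries also varied. The mitochondrially encoded genes took 0.405%, 0.312%, 0.424% and 0.285% of the counts in the vehicle and 0.275%, 0.216%, 0.199% and 0.282% in the TP-472 libraries, and the groups did not overlap, with or without vehicle replicate 3. FP236383.4, a noncoding row at chr21:8393419-8394341 on the minus strand (FP236383.2 in GENCODE release 29, matched by identifier) beside the 5.8S ribosomal RNA gene RNA5-8SN2, took 1.96%, 4.30%, 0.106% and 2.76% in the vehicle and 3.03%, 1.82%, 0.891% and 0.519% in the TP-472 libraries. Of the long nuclear noncoding RNAs listed, MALAT1 took 0.904%, 0.495%, 0.550% and 0.505% in the vehicle and 0.542%, 0.491%, 0.448% and 0.844% in the TP-472 libraries. It was thus highest in vehicle replicate 1 and TP-472 replicate 4, the libraries of each group with the lowest 7SL share apart from vehicle replicate 3. Its log2 fold change was −0.050 ± 0.24 (−0.12 without vehicle replicate 3). NEAT1, the scaffold of paraspeckles, took 0.0649%, 0.0323%, 0.0643% and 0.0373% in the vehicle and 0.0273%, 0.0210%, 0.0203% and 0.0356% in the TP-472 libraries. It was called lower by the edgeR test described with the small RNAs, at −0.89 ± 0.24 on the log2 scale (adjusted p = 0.0194), or −0.78 without vehicle replicate 3, although TP-472 replicate 4 lay above vehicle replicate 2. The part of such differences in library composition in the values of the 6 RNAs was not tested.

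Other small RNAs show how far vehicle replicate 3 differed. Of 57 names of other RNA polymerase III RNAs, spliceosomal RNAs, small nucleolar and Cajal body RNAs and the telomerase RNA, 43 were in the table (44 rows), and 19 rows passed the limit of more than 1 CPM in at least 4 libraries. The 25 rows that did not pass had lengths of 63 to 218 bases with a median of 116, and 20 of them had fewer than 10 counts in every library, among them the U6, vault and 5S RNAs. The 19 that passed were longer, with a median of 275 bases.

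In vehicle replicate 3, 9 of these 19 rows were higher than in any other vehicle library and 7 were lower. Like RPPH1 (2.76 times the mean of the other vehicle libraries), TERC (2.35), the spliceosomal RNA RNU4-1 (2.75) and the brain cytoplasmic RNA BCYRN1 (2.27) were high. Like RN7SK (0.529) and RN7SL2 (0.455), the Cajal body RNAs SCARNA5 (0.301), SCARNA7 (0.247) and SCARNA10 (0.305) were low. These RNAs were named after their values in this library were seen.

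**Figure D4:**
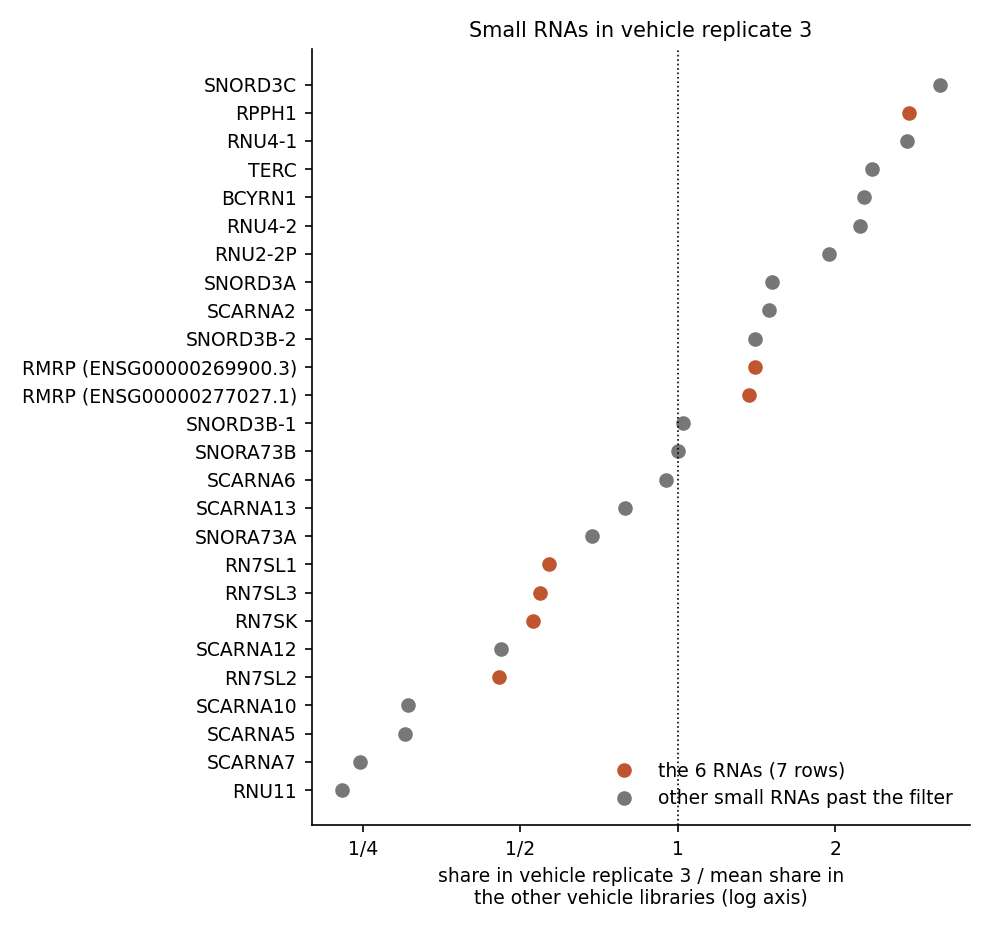
Share of counts in vehicle replicate 3 divided by the mean share in the other vehicle libraries (log axis, dotted line at 1) for the 7 rows of the 6 RNAs and the 19 other small RNA rows that passed the filter. 7SL and 7SK lay at 0.455 to 0.569, RMRP at 1.37 to 1.41 and RPPH1 at 2.76, with other small RNAs on both sides.

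In edgeR's quasi-likelihood test of 14073 genes, 26.9% were differentially expressed, that is, past an adjusted p-value of 0.05 and a fold change of 1.5, with 12.0% higher and 14.9% lower after TP-472. Among the 19 small RNA rows, 3 (15.8%) were higher and none was lower, beside 12.0% and 14.9% of all genes. Without vehicle replicate 3 SCARNA2 was called as well, so that 4 were higher and none was lower. Only 1 (SNORD3B-1) was higher without vehicle replicate 1 and without TP-472 replicate 2, 3 or 4. The difference from the background was not tested. At an unadjusted p-value under 0.05, 4 were higher and 2 were lower, and as no share of all genes is given at that limit nothing is read from this. DESeq2, which was given 33 of the small RNA rows without a filter on CPM, called 4 higher and 1 lower. Of the 33192 genes it was given, 2678 were higher and 2897 lower. Both totals include rows of few counts, which its default filter can leave without an adjusted p-value. The shares called are thus not comparable with those of edgeR. BCYRN1 stood at 86.6, 106, 208 and 101 TMM-scaled CPM in the vehicle and 211, 238, 274 and 240 in the TP-472 libraries (log2 fold change 0.94 ± 0.26, adjusted p = 0.0222, or 1.29 without vehicle replicate 3). Its vehicle replicate 3 nearly reached the lowest TP-472 library. SNORD3B-1, a U3 gene copy whose reads can be shared with its paralogs, had a log2 fold change of 1.18 ± 0.18 (adjusted p = 0.00192), and RNU11, the minor spliceosomal U11 RNA, of 1.39 ± 0.41 (adjusted p = 0.0289) at only 7 to 86 counts. These were 1.15 and 1.07 without vehicle replicate 3. SNORD3A (−0.22 ± 0.23, or −0.088 without that library) and RNU2-2P (−0.54 ± 0.23, or −0.28), the most abundant of their lists, did not pass.

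The genes of the protein partners and of the RNA polymerase III machinery, which the choice of the RNAs had not used, were read from the same fit. Their lists were chosen with earlier results of these data known, which limits what their counts and p-values can mean. Of 70 such genes, all of which were tested, 20 (28.6%) were higher and none was lower after TP-472. Of all genes 12.0% were higher and 14.9% were lower, 26.9% in all, and the difference from this background was not tested, here or for the lists that follow. At an unadjusted p-value under 0.05, 32 were higher and 1 (HEXIM2) was lower. No share of all genes is given at that limit, so nothing is read from these counts. DESeq2 called 21 of the 70 genes higher and 0 lower. Of the 33192 genes it was given, without a filter on CPM, 2678 were higher and 2897 lower. That total includes rows of few counts that may have had no adjusted p-value, so its share called is not a like background. The median log2 fold change was 0.35, compared with −0.026 over all genes, and 55 of the 70 estimates were above 0. Without vehicle replicate 3, 16 genes were higher and 1 was lower, with a median of 0.32, beside 12.0% higher and 13.1% lower of all genes (25.0% in all). Leaving out TP-472 replicate 3 left 13 of these genes higher. In that fit 1165 of all 13868 genes tested were higher, compared with 1693 of 14073 with all libraries.

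The SRP proteins bind 7SL directly. Of 6 genes, 1 (16.7%) was higher, beside 12.0% of all genes, none was lower and the median log2 fold change was 0.33, or 0.13 without vehicle replicate 3. SRP19, whose binding to 7SL helps SRP54 to join, had 30.8, 44.4, 14.0 and 38.7 TMM-scaled CPM in the vehicle and 58.3, 62.2, 61.5 and 55.7 in the TP-472 libraries. The groups did not overlap, and the log2 fold change of 0.89 ± 0.29 passed (adjusted p = 0.0410), or 0.64 without vehicle replicate 3. The call was lost without vehicle replicate 1 or any TP-472 replicate (adjusted p = 0.076 to 0.094). The log2 fold change was then 0.87 to 0.93. The others did not pass. They were SRP9 (0.33 ± 0.35) and SRP14 (0.33 ± 0.19), which bind the Alu domain, the GTPase SRP54 (0.37 ± 0.26), and SRP68 (0.010 ± 0.17) and SRP72 (0.19 ± 0.12), which bind 7SL as a heterodimer. The values in the same order were 0.035, 0.16, 0.14, 0.12 and 0.10 without vehicle replicate 3, and none passed.

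Among 12 genes of the SRP receptor and the translocon, to which the particle delivers ribosomes, 3 (25%) were higher, beside 12.0% of all genes, and none was lower (median 0.37, or 0.22 without vehicle replicate 3). Without that library the number was again 3, with SEC61G (0.93, adjusted p = 0.0558, and 0.65 without it) in place of SEC61B. SRPRB, the membrane subunit of the receptor, stood at 54.6, 66.8, 37.9 and 62.7 TMM-scaled CPM in the vehicle and 130, 139, 142 and 129 in the TP-472 libraries. The gap between the groups was larger than the range within either, and the log2 fold change was 1.28 ± 0.17 (adjusted p = 0.000904), or 1.13 without vehicle replicate 3. SSR3, a subunit of the translocon-associated complex, had 0.76 ± 0.15 (adjusted p = 0.00543), or 0.62 without that library, and SEC61B, a small subunit of the channel, 0.61 ± 0.16 (adjusted p = 0.0191), which was 0.47 and under the fold limit without vehicle replicate 3. SEC61A1, the channel itself and the most abundant of the list, had 0.15 ± 0.091, or 0.18 without it.

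None of the 7 genes of the 7SK particle and P-TEFb passed in edgeR, beside 26.9% of all genes, or in DESeq2. Their median log2 fold change was 0.095, or 0.16 without vehicle replicate 3. In edgeR 1 (HEXIM2) had an unadjusted p-value under 0.05, a limit at which no share of all genes is given. With so few genes nothing is read from these counts. The 7SK capping enzyme MEPCE had 34.05, 35.1, 59.9 and 37.9 TMM-scaled CPM in the vehicle and 46.8, 48.6, 43.4 and 39.8 in the TP-472 libraries. Its log2 fold change was 0.095 ± 0.19 with a vehicle replicate 3 far above the rest, and 0.32 (adjusted p = 0.00809) without it, under the fold limit. The kinase CDK9 had −0.14 ± 0.22, which became 0.16 without vehicle replicate 3, and its cyclins CCNT1 and CCNT2 had 0.33 ± 0.15 and 0.30 ± 0.19. LARP7, which protects the 3′ end of 7SK, had −0.16 ± 0.17, and the inhibitors HEXIM1 and HEXIM2 had 0.14 ± 0.17 and −0.45 ± 0.19. With vehicle replicate 3 left out, CCNT1 and CCNT2 had 0.19 and 0.13, LARP7 −0.31, HEXIM1 0.32 and HEXIM2 −0.25, all under the fold limit.

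Of 11 genes of RNase P and RNase MRP proteins, 5 (45.5%) were higher, beside 12.0% of all genes, and none was lower (median 0.52). When vehicle replicate 3 was left out, 3 were higher, again beside 12.0% of all genes, and the median was 0.47. POP1, the largest protein of both enzymes, stood at 27.6, 27.8, 27.8 and 30.5 TMM-scaled CPM in the vehicle and 48.9, 46.9, 48.6 and 43.4 in the TP-472 libraries. Vehicle replicate 3 lay within the range of the others here, and the log2 fold change was 0.72 ± 0.095 (adjusted p = 0.000884), or 0.71 without it. RPP14 had 0.76 ± 0.11 (adjusted p = 0.00144) and RPP40 0.91 ± 0.24 (adjusted p = 0.0196), or 0.72 and 0.69. RPP30 and RPP21, with 0.61 ± 0.16 (adjusted p = 0.0174) and 0.59 ± 0.16 (adjusted p = 0.0204), passed the fold limit narrowly and did not pass it without vehicle replicate 3 (0.47 and 0.58). Without TP-472 replicate 3, RPP21, RPP30 and RPP40 were not called (adjusted p = 0.053 to 0.057), whereas POP1 and RPP14 were. RPP40 was also not called without TP-472 replicate 2 (adjusted p = 0.0515).

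The 13 genes of RNA polymerase III subunits, which include 2 shared with RNA polymerase I, had the largest share past the limits of the 6 lists of protein genes, 8 higher and none lower (61.5%, median 0.64), beside 12.0% of all genes higher and 14.9% lower. The difference between the lists was not tested. Without vehicle replicate 3, 6 were higher and 1 was lower (median 0.54). POLR3G had 5.06, 7.37, 3.03 and 6.03 TMM-scaled CPM in the vehicle and 17.1, 15.8, 16.2 and 16.7 in the TP-472 libraries. It encodes one of the alternative forms of a subunit used at initiation, and its log2 fold change was 1.62 ± 0.24 (adjusted p = 0.00145), or 1.42 without vehicle replicate 3. POLR3GL, the other form, which was named after its values were seen, had −0.50 ± 0.26 (adjusted p = 0.152) and was the gene called lower without vehicle replicate 3, with −0.67.

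POLR3K and POLR1C had log2 fold changes of 1.12 ± 0.13 (adjusted p = 0.000446) and 1.09 ± 0.16 (adjusted p = 0.00126). POLR3F had 0.90 ± 0.27 (adjusted p = 0.0279), POLR3C 0.89 ± 0.13 (adjusted p = 0.00161) and CRCP 0.71 ± 0.19 (adjusted p = 0.0188). Leaving out vehicle replicate 3 gave 1.06, 0.95, 0.67, 0.78 and 0.94 in the same order, all past the limits. POLR3B and POLR1D, with 0.64 ± 0.15 (adjusted p = 0.0115) and 0.59 ± 0.099 (adjusted p = 0.0026), were under the fold limit without vehicle replicate 3 (0.51 and 0.54). The catalytic subunit POLR3A, the most abundant of the list, had 0.18 ± 0.14, or 0.28 without that library, and did not pass.

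Of 21 factors that recruit or restrain RNA polymerase III or bind its products, 3 (14.3%) were higher, beside 12.0% of all genes, and none was lower (median 0.25). The number was again 3 and the median again 0.25 without vehicle replicate 3, with SNAPC2 (0.44, adjusted p = 0.209, and 0.80 without it) in place of SNAPC1. SNAPC5 and SNAPC1 belong to the complex that binds the upstream promoters of 7SK, RMRP and RPPH1, and BRF2 is the initiation factor of those promoters. Their log2 fold changes were 0.96 ± 0.16 (adjusted p = 0.00288), 0.60 ± 0.15 (adjusted p = 0.0141) and 0.72 ± 0.15 (adjusted p = 0.00711). They were 0.84, 0.48 and 0.63 without vehicle replicate 3. BDP1, a common initiation factor and the most abundant of the list, had 0.29 ± 0.14, or 0.17 without that library, and did not pass.

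**Figure D5:**
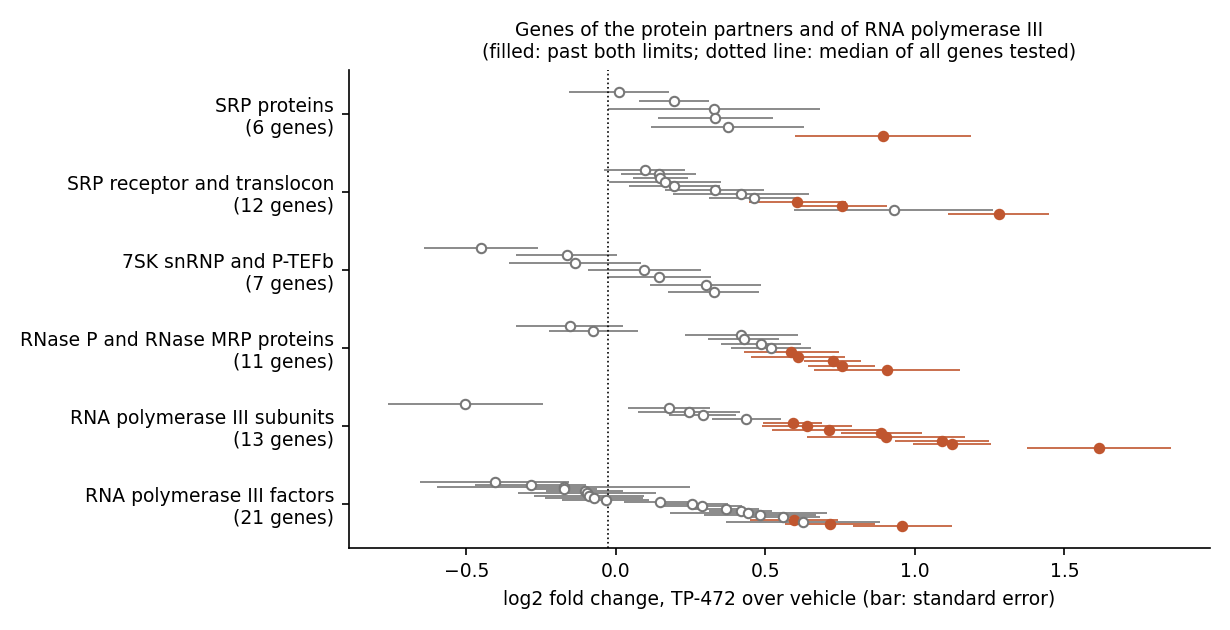
Log2 fold change (TP-472 over vehicle, bars are standard errors) of each gene in the 6 lists of protein partners and RNA polymerase III genes. Filled points passed both limits in edgeR's test and all of them lie above 0, and the dotted line is the median of all genes tested, −0.026.

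The genes whose pattern over the 8 libraries was most like that of each RNA were taken from the 11066 tested genes that averaged 5 CPM or more, by Pearson's r of log2 CPM. For RN7SL1 and RN7SL2 summed these were PRDX5 (r = 0.993), UQCRC1 (0.990), RPS14 (0.989) and AC243919.1 (0.989). For RN7SK they were RPS14 (0.997), PRDX5 (0.995), AC243919.1 (0.995) and RPL4 (0.994), 3 of which are the same genes. For RMRP they were C12orf57 (0.990), PRDX2 (0.981), COQ9 (0.980) and LGALS1 (0.976), and for RPPH1 RPL13 (0.987), HLA-E (0.978), BAD (0.973) and ZNF768 (0.973). Without vehicle replicate 3 the values for 7SL, 7SK and RMRP were 0.965 to 0.994, and those for RPPH1 were 0.905 to 0.956.

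The neighbouring protein-coding genes were examined as well, which was decided after the values of the RNAs were known. They were read from the same edgeR fit. CILK1, 5331 bases from RN7SK, was lower (log2 fold change −0.71 ± 0.11, adjusted p = 0.0015, or −0.79 without vehicle replicate 3). GSTA4, 243 bases from RN7SK, had −0.56 ± 0.25 (adjusted p = 0.108) and was called lower without that library, with −0.78 (adjusted p = 0.000329).

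The neighbours that follow were under the fold limit with and without that library. Close to RPPH1, PARP2 begins 175 bases away on the opposite strand and had −0.21 ± 0.11 (adjusted p = 0.177), or −0.30 (adjusted p = 0.00147) without vehicle replicate 3, and CCNB1IP1 had 0.51 ± 0.16 (adjusted p = 0.0387), or 0.36 without it. CCDC107 and CD72, beside RMRP, had −0.32 ± 0.20 (adjusted p = 0.228) and −0.54 ± 0.19 (adjusted p = 0.0528), or −0.093 and −0.55. NEMF, 413 bases from RN7SL3, had 0.047 ± 0.17 (adjusted p = 0.84), or −0.11, and ARF6 on the other side had 0.087 ± 0.14 (adjusted p = 0.632), or −0.025. LRR1, above RN7SL1, had 0.42 ± 0.19 (adjusted p = 0.116), or 0.24. RPS29, whose gene overlaps RN7SL1 on the opposite strand, had 0.33 ± 0.26 (adjusted p = 0.338), or 0.12, and reads from opposite strands can be separated only if the counting used strand, which the sources used here do not state.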

How the data were processed

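RNA from 4 vehicle and 4 TP-472 libraries was analysed. Per the labels, a TruSeq RNA kit was used with total RNA, and the study's methods name a strand-specific total RNA protocol. The deposited values are estimated counts per gene, which the authors made with Salmon 1.4.0 on GRCh38 and summed to genes with tximport and GENCODE release 34, without normalization or filter. The share of values that were not whole was 13.8% to 23.2% per library.

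Counts were rounded and scaled by TMM. The 14073 genes above 1 CPM in 4 or more of the 8 libraries were fitted in edgeR 4.0.16 (R 4.3.3, glmQLFit and glmQLFTest, Benjamini-Hochberg adjustment), and a call required both an adjusted p-value below 0.05 and a change of over 1.5-fold. Log2 fold changes are TP-472 over vehicle with standard errors from this fit, and shares are percentages of the total counts. Positions, gene types and sequences come from GENCODE release 29, joined by identifier for 58107 of 60282 genes, and the 7SL sequences are not reported here. On simulated data with 200 genes changed 4-fold, 191 were recovered, with 9 calls among 13873 unchanged genes.

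The members and the 10 gene lists were chosen with earlier results of these data known. Genes were named if they were members, belonged to a list of up to 7 genes, were called in a longer list or (where none was) had the 4 largest changes, or were the most abundant of a list, besides the leading pseudogenes (up to 3) and the 4 genes most like each RNA. Alternatives were RLE, upper-quartile and total-count scaling, scaling without the 6 RNAs and on protein-coding genes, DESeq2 1.42.0, no filter and filterByExpr, replicate number as a block and each library left out. Other shares used denominators without mitochondrial genes or of protein-coding genes.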

Additional observations from a re-analysis of the deposited data

Results flagged for a closer look

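A gap test for an extreme library (Dixon's ratio at its 95% limit for groups of 4) was applied to 148 groups of values, and 17 had an extreme library, 13 of them with vehicle replicate 3. Chance alone gives about 1 in 20 groups, and the groups are not independent since they share libraries. Vehicle replicate 3 was extreme in the share of the shorter RMRP row (1.16% against 0.830% to 0.867% in the other vehicle libraries), of both RMRP rows (1.76% against 1.24% to 1.31%), of RPPH1 (3.08% against 1.06% to 1.15%) and of SNORD3A (2.47% against 1.54% to 1.68%, and 23221 against 15954 to 17134 TMM-scaled CPM). It was also extreme in RPPH1 counts per RMRP count (1.74 against 0.813 to 0.908) and per 7SL count (0.681 against 0.112 to 0.165).

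In TMM-scaled CPM, vehicle replicate 3 was extreme for MEPCE (59.9 against 34.05 to 37.9), HEXIM2 (7.74 against 4.59 to 5.03), CDK9 (58.5 against 29.2 to 32.5), CRCP (32.7 against 18.8 to 19.4), BCYRN1 (208 against 86.6 to 106) and SEC61A1 (257 against 228 to 233). Vehicle replicate 4 was extreme for POP1 (30.5 against 27.6 to 27.8). Vehicle replicate 1 was extreme for MALAT1, with 0.904% of the counts against 0.495% to 0.550% and 8607 against 5150 to 5202 TMM-scaled CPM. TP-472 replicate 4 was extreme for SRP68 (90.7 against 78.2 to 79.8 TMM-scaled CPM).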

How the results depend on the processing

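Of 249 recomputed counts, fold changes of members and ratios of the summed share, 238 stayed within the spread between replicates or within 1.5 times the count. The spread was computed with vehicle replicate 3 included, which made this limit wide for the members. RPPH1 counted as within it although its sign changed without that library. For the members, nothing is read from the number that stayed within the limit. The log2 fold changes of the members ranged, with 1 library left out, from 0.13 to 0.45 for RN7SL1, 0.29 to 0.69 for RN7SL2, 0.72 to 1.05 for RN7SL3, 0.17 to 0.55 for RN7SK, −0.57 to −0.20 and −0.45 to −0.28 for the RMRP rows and −0.54 to 0.086 for RPPH1. The ratio of the summed share was 1.10 to 1.26. DESeq2, which was given more genes because no filter on CPM was applied, called 2678 genes higher (1693 with edgeR). It called 1 other small RNA lower (none with edgeR), namely SNORD3C. The genes called in all ranged from 2486 to 4110, those higher from 1165 to 1785 and those lower from 1321 to 2325 with 1 library left out. The partner and RNA polymerase III genes called higher ranged from 13 (without TP-472 replicate 3) to 22 and those lower from 0 to 1, and the other small RNAs called higher from 1 to 4 and those lower stayed at 0. The low value of 1 held without vehicle replicate 1 and without TP-472 replicate 2, 3 or 4.

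Of the 24 genes named from the lists and past both limits (CILK1, a neighbour of RN7SK, was not included), 11 stayed past them under all 17 settings, namely SRPRB, SSR3, POP1, RPP14, POLR3C, POLR3G, POLR3K, POLR1C, BRF2, SNAPC5 and SNORD3B-1. RPP21 lost its call in 12 settings, POLR1D in 7, SEC61B in 6, SRP19, POLR3F, SNAPC1, BCYRN1 and RNU11 in 5 each, NEAT1 in 4, RPP30, RPP40 and CRCP in 2 each and POLR3B in 1. Signs turned for genes that had not passed. SRP68 had −0.012 with upper-quartile scaling, −0.031 with total-count scaling, −0.0034 with scaling on protein-coding genes, and −0.098, −0.089 and −0.039 without vehicle replicate 2, vehicle replicate 4 and TP-472 replicate 4. CDK9 had 0.16 without vehicle replicate 3, in a range of −0.25 to 0.16 over the libraries left out. MALAT1 had 0.16 without vehicle replicate 1 and 0.010 and 0.054 without TP-472 replicates 2 and 3, in a range of −0.25 to 0.16. The cause was not tested.

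The labels number the replicates in both groups. Deviations of same-numbered libraries correlated at −0.055, 0.12, −0.17 and −0.18, and not every library correlated best with its own number. The highest value was 0.398, for vehicle replicate 1 with TP-472 replicate 4. So few values cannot settle whether libraries were paired or shared a batch. With a replicate block 3055 genes were called in place of 3789, 3015 of them shared, and 19 partner and RNA polymerase III genes were higher. Depth limited little for the 6 RNAs, whose spread between libraries far exceeded counting error.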
